A study of Mus musculus with 2 samples.

Results

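The genes described here are the mouse axon guidance ligands and receptors: semaphorins, plexins, neuropilins, ephrins, Eph receptors, Slits, Robos, netrins and netrin receptors. They were chosen by symbol among the 21474 protein-coding genes of the deposited tables. The rule uses no measured value, but earlier results of these data were known when it was set. The rule lists 69 symbols, of which 68 matched a gene and Ntn3 did not. Of the 68 genes 33 encode ligands and 35 encode receptors or receptor subunits.

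RNA was sequenced from 2 pieces of tissue cut by laser capture out of layer 5 of the cerebral cortex, one of its deep layers. Both areas came from wild-type male C57Bl6 mouse tissue (strain label B6NCrl) at 8 months of age, with no treatment, and each piece, called an area here, covered about 8000 square microns and was entered as 50 cells. The labels call the libraries biological replicates 1 and 2 but give them the same donor, so the spread between them is a spread between areas, and it may be partly technical. There was 1 group, each side of a difference is 1 library, and no p-value can be given. Replicate 1 held 26059117 expected counts and replicate 2 held 28276843, an expected count being a share of reads that a program assigns to a gene. Levels are in TPM, a unit scaled for transcript length and library depth. An area holds neurons together with glia and vessel cells, and fewer cells of a type and less RNA per cell cannot be told apart in it.

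Guidance ligands steer a growing axon by binding receptors on its growth cone, which then reshape the cytoskeleton. Semaphorins act through plexins, with neuropilins as co-receptors for most secreted forms, ephrins act through Eph receptor tyrosine kinases, Slits act through Robos, and netrins act through Dcc, neogenin and Unc5 receptors. In the adult cortex many of these genes stay expressed and take part in synapse and spine maintenance. Layer 5 holds the corticospinal neurons, for which ephrin-B3 at the midline and EphA4 on the axon are a classic ligand and receptor pair.

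Of the 68 guidance genes 38, or 55.9%, reached 1 TPM in both areas, beside 51.5% of all protein-coding genes. Another 13 reached it in 1 area and 17 in neither. Receptors were listed at 1 TPM in both areas in 21 of 35 cases and ligands in 17 of 33. Summed over genes, receptors reached 272 TPM in replicate 1 and 277 TPM in replicate 2. Ligands reached 105 and 120 TPM. The receptors therefore summed to 275 ± 3.67 TPM and the ligands to 112 ± 10.6 TPM (SD, n = 2 areas). These are sums of different genes in the same libraries, and the receptor sum was the higher in both areas. Over transcripts with a complete coding sequence receptors summed to 178 and 190 TPM and ligands to 73.9 and 88.9 TPM. The whole set took 0.131% and 0.134% of the counts of replicates 1 and 2. The median guidance gene stood at 2.21 TPM in replicate 1 and 3.02 TPM in replicate 2, beside 1.83 and 1.79 TPM for the median protein-coding gene.

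**Figure D1:**
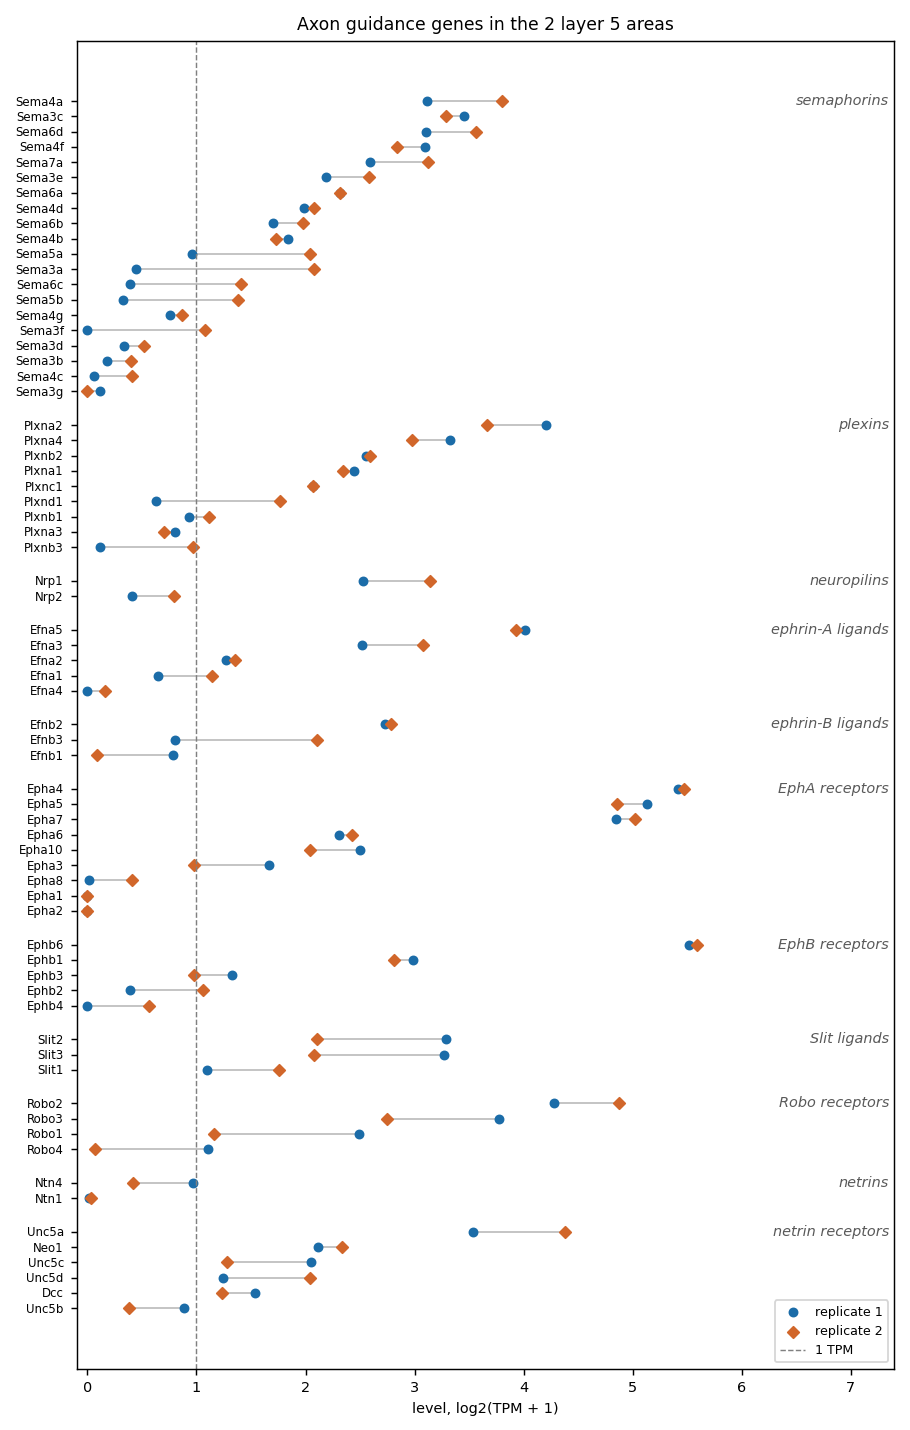
Level of each of the 68 guidance genes in both areas, as log2(TPM + 1), grouped by family and ordered by mean level. Circles are replicate 1, diamonds are replicate 2, the grey line joins the areas and the dashed line marks 1 TPM. Ephb6, Epha4, Epha5 and Epha7 lie farthest to the right, and Epha1 and Epha2 are at 0 in both areas.

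EphA receptors were the family with the highest summed level, 114 TPM in replicate 1 and 112 TPM in replicate 2 over 9 genes. The plot of family sums shows semaphorins next, at 56.2 and 76.5 TPM over 20 genes, and then EphB receptors, at 53.5 and 55.8 TPM over 5 genes. The order was the same in both areas. Netrins were lowest, at 0.97 and 0.36 TPM over 2 genes. When only transcripts with a complete coding sequence were summed, EphA receptors still led with 83.3 and 79.6 TPM. Semaphorins were at 36.6 and 51.0 TPM. EphB receptors, at 24.4 and 24.1 TPM, then also fell below the plexins, at 26.45 and 25.16 TPM. In replicate 2 they were below the netrin receptors, at 29.4 TPM, as well.

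**Figure D2:**
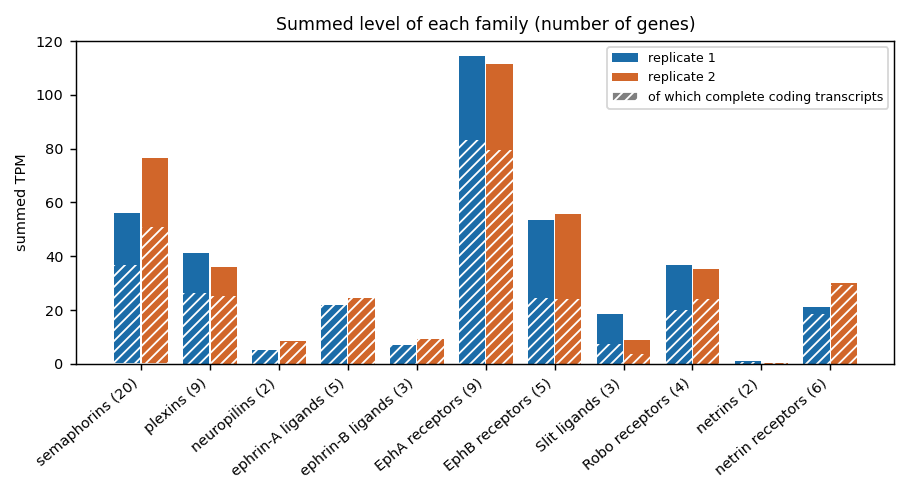
Summed TPM of each guidance family in replicate 1 (blue) and replicate 2 (orange), with the number of genes in brackets. The hatched lower portion of each bar is the share from transcripts with a complete coding sequence. EphA receptors reach 114 and 112 TPM, and the Slits reach 18.5 TPM in replicate 1 and 8.89 TPM in replicate 2.

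Among the ligands, 10 of 20 semaphorins reached 1 TPM in both areas and 5 in neither. Of the 20, 15 had the higher value in replicate 2 and 5 in replicate 1. Over all protein-coding genes 7705 had the higher value in replicate 2 and 7291 in replicate 1. Sema4a, a transmembrane class 4 semaphorin, was listed at 7.67 TPM (334 counts) in replicate 1 and 12.97 TPM (591 counts) in replicate 2. Sema3c, a secreted class 3 semaphorin, was at 9.92 TPM (828 counts) and 8.75 TPM (594 counts). Sema6d, a transmembrane semaphorin, was at 7.62 TPM (876 counts) and 10.82 TPM (1250 counts). These 3 genes differed between the areas by less than 2-fold. Sema4f, another class 4 member, was at 7.54 TPM (622 counts) and 6.17 TPM (530 counts). Sema7a, which is anchored in the membrane by a lipid and binds plexin C1, was at 5.03 and 7.73 TPM, and its receptor gene Plxnc1 was at 3.20 TPM in both areas. Sema3e, which binds plexin D1 without a neuropilin, was at 3.56 and 4.98 TPM. Sema4b was at 2.58 and 2.32 TPM and Sema6b at 2.26 and 2.94 TPM. All but Sema3c and Sema4f of the first 6 semaphorins were higher in replicate 2.

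Sema3a, the secreted semaphorin that repels axons through neuropilin-1 and class A plexins, was at 0.36 TPM (45 counts) in replicate 1 and 3.21 TPM (416 counts) in replicate 2. That is 8.92-fold by TPM, and the ratio of counts per total was 8.52 (6.25 to 11.9, exact Clopper-Pearson 95% interval). These intervals, here and below, cover counting error alone. Sema5a, a transmembrane semaphorin with thrombospondin repeats, was at 0.94 TPM (216 counts) and 3.11 TPM (742 counts), a count ratio of 3.17 (2.72 to 3.70) in the same direction. Sema5b, its paralogue, was at 0.25 and 1.61 TPM with 23 and 152 counts. Sema6c was at 0.31 and 1.65 TPM with 25 and 108 counts. Sema3f was listed at 0 counts in replicate 1 and 54 counts (1.11 TPM) in replicate 2. With the 0 set to a floor of 3 counts per library that is 16.6-fold, and the exact 95% interval of its count ratio starts at 13.0. Each of these 5 semaphorins was thus higher in replicate 2, and the latter 3 had a mean below 1 TPM and stood outside the comparison of folds described further on.

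Efna5, a lipid-anchored ephrin-A, was at 15.09 TPM (1277 counts) in replicate 1 and 14.26 TPM (1240 counts) in replicate 2. Efna3 was at 4.74 TPM (231 counts) and 7.44 TPM (375 counts), Efna2 was at 1.42 and 1.55 TPM with 62 and 70 counts, and Efna1 was at 0.57 and 1.21 TPM with 18 and 36 counts. Efna5 had the highest level of the 5 ephrin-A genes in each area. Efnb2, a transmembrane ephrin-B, was at 5.65 TPM (514 counts) and 5.89 TPM (554 counts). Efnb3, the midline ephrin that stops corticospinal axons (ENSMUSG00000003934.5, chr11:69554092-69560205, minus strand, GRCm38), was at 0.75 TPM (50 counts) and 3.31 TPM (227 counts). Its count ratio was 4.18 in favour of replicate 2 (3.07 to 5.80, exact Clopper-Pearson 95% interval). Efnb1 went the other way, with 49 counts (0.72 TPM) in replicate 1 and 4 counts (0.06 TPM) in replicate 2.

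The Slits, large secreted repellents, were all detected in both areas, and together they reached 18.5 TPM in replicate 1 and 8.89 TPM in replicate 2. Slit2 was at 8.77 TPM (865 counts) and 3.29 TPM (410 counts), a count ratio of 2.29 (2.03 to 2.58). Slit3 was at 8.62 TPM (279 counts) and 3.22 TPM (102 counts), a count ratio of 2.97 (2.36 to 3.76). Both were higher in replicate 1 by either measure. Slit1 was at 1.14 TPM in replicate 1 and 2.38 TPM in replicate 2, while its counts were 130 and 138. The count ratio of replicate 2 over replicate 1 was 0.978 (0.764 to 1.25), an interval that includes 1 beside a TPM ratio of 2.09. The difference in TPM lay in the short incomplete model Slit1-205, which was assigned 0 and 37.8 counts and 0 and 1.52 TPM. Netrins were at the low end: Ntn4 had 64 and 27 counts (0.96 and 0.34 TPM) and Ntn1, the netrin of the ventral midline, had 1 and 2 counts.

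Of the semaphorin receptors, 5 of 9 plexins and 1 of 2 neuropilins reached 1 TPM in both areas. Plxna2 was at 17.42 TPM (2362 counts) in replicate 1 and 11.64 TPM (2059 counts) in replicate 2. Plxna4 was at 9 TPM (2474 counts) and 6.85 TPM (1947 counts). Plxna1, at chr6:89316314-89362620 on the minus strand (ENSMUSG00000030084.7), was at 4.45 TPM (855 counts) and 4.09 TPM (813 counts). Class A plexins are the signalling partners of neuropilins, and these 3 differed between the areas by less than 2-fold. Nrp1, which binds Sema3a, was at 4.75 TPM (594 counts) and 7.82 TPM (1011 counts), and Nrp2 had 38 and 50 counts. Plxnb2, a class B plexin, was at 4.88 and 5.02 TPM with 209 and 110 counts, and Plxnb1, the receptor of Sema4d, at 0.91 and 1.16 TPM with 166 and 219 counts. The counts and the TPM of Plxnb2 thus went different ways. Plxnd1, the receptor of Sema3e that is best known from vessels, was at 0.55 TPM (81 counts) and 2.40 TPM (363 counts), a count ratio of 4.13 (3.24 to 5.32) in favour of replicate 2. Plxnb3 had 8 counts in replicate 1 and 95 in replicate 2.

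Eph receptors held the 4 most abundant genes of the set. Ephb6, a member whose kinase is inactive, was at 44.76 TPM (1469 counts) in replicate 1 and 47.29 TPM (1586 counts) in replicate 2. Epha4, which binds ephrins of both classes and lies at chr1:77367185-77515088 on the minus strand (ENSMUSG00000026235.10), was at 41.69 TPM (4081 counts) and 43.39 TPM (4580 counts). Epha5 was at 34.11 TPM (3225 counts) and 27.90 TPM (2583 counts), and Epha7 was at 27.81 TPM (1981 counts) and 31.54 TPM (2379 counts). Ephb6 lay above Epha4 in both areas, whereas Epha5 and Epha7, both receptors of ephrin-A ligands, changed places between them. The mean of Epha4 was above 88.1% of protein-coding genes. Counted as reads without regard to length, Epha4 ranked 1 among the guidance genes and Ephb6 ranked 7.

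The other EphA members were lower. Epha6 was at 3.96 and 4.38 TPM, and its counts were 201 and 372. Epha10, whose kinase is also inactive, was at 4.66 TPM (332 counts) and 3.11 TPM (260 counts). Epha3 was at 2.17 TPM (260 counts) and 0.97 TPM (120 counts), a count ratio of 2.35 in favour of replicate 1 (1.89 to 2.94). Epha8 had 1 and 34 counts, and Epha1 and Epha2 had 0 in both libraries. A count of 0 allows up to 3 counts, which is 0.115 CPM in replicate 1 and 0.106 CPM in replicate 2 (CPM being counts scaled to the library total). Of the EphB receptors, Ephb1 was at 6.90 TPM (653 counts) and 6.02 TPM (611 counts), Ephb3 at 1.51 and 0.97 TPM with 130 and 88 counts, and Ephb2 at 0.31 and 1.08 TPM with 38 and 69 counts. Ephb4, a venous endothelial receptor, had 0 counts in replicate 1 and 39 in replicate 2. With the 0 set to the floor of 3 counts per library that is 12.0-fold in favour of replicate 2. The exact Clopper-Pearson interval of its count ratio starts lower, at 9.29.

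Among Robo receptors Robo2 was the most abundant, at 18.35 TPM (2132 counts) in replicate 1 and 28.29 TPM (3848 counts) in replicate 2. Its gene (ENSMUSG00000052516.13) lies at chr16:73891839-74411825 on the minus strand. Robo1, its neighbour in function as a Slit receptor of cortical axons, was at 4.63 TPM (743 counts) and 1.24 TPM (206 counts). The count ratio of Robo1 was 3.91 in favour of replicate 1 (3.35 to 4.59), and that of Robo2 was 1.66 in favour of replicate 2 (1.58 to 1.75). Robo3, which is known for letting axons cross the midline, was at 12.65 TPM (697 counts) and 5.72 TPM (373 counts), a count ratio of 2.03 (1.79 to 2.31) in favour of replicate 1. Robo4, the endothelial member, had 93 counts (1.15 TPM) in replicate 1 and 4 counts (0.05 TPM) in replicate 2.

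Of the netrin receptors 5 of 6 reached 1 TPM in both areas, although neither netrin did. Unc5a, a receptor for repulsion from netrin, was at 10.57 TPM (853 counts) in replicate 1 and 19.81 TPM (1622 counts) in replicate 2, which is just under 2-fold. Neo1, which encodes neogenin and also binds repulsive guidance molecules, was at 3.32 TPM (521 counts) and 4.04 TPM (655 counts). Dcc, the receptor for attraction to netrin, was at 1.91 TPM (172 counts) and 1.35 TPM (146 counts). Its transcripts with a complete coding sequence went the other way, at 0.77 and 1.11 TPM, and the retained-intron model Dcc-203 was at 1.15 and 0.25 TPM. Unc5c was at 3.13 TPM (422 counts) and 1.43 TPM (282 counts), a 2.19-fold difference in TPM and a count ratio of 1.62 (1.39 to 1.89) in favour of replicate 1. Unc5d, a marker of upper-layer neurons in development, was at 1.36 TPM (258 counts) and 3.12 TPM (612 counts), a count ratio of 2.19 (1.89 to 2.54) in favour of replicate 2. Unc5b, best known from vessels, had 105 and 38 counts and stayed below 1 TPM in both areas.

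The 17 genes under 1 TPM in both areas were Sema3b, Sema3d, Sema3g, Sema4c, Sema4g, Plxna3, Plxnb3, Nrp2, Efna4, Efnb1, Epha1, Epha2, Epha8, Ephb4, Ntn1, Ntn4 and Unc5b. Their counts ran from 0 to 105 in replicate 1 and from 0 to 95 in replicate 2. None exceeded 0.96 TPM.

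Folds between the areas were read for the 45 guidance genes whose mean was 1 TPM or more and whose counts in both libraries came to 50 or more. Of these 6, or 13.3%, were more than 2-fold higher in replicate 1 by TPM, beside 7.44% of all protein-coding genes passing the same filter. They were Epha3, Robo1, Robo3, Slit2, Slit3 and Unc5c. Another 6 were more than 2-fold higher in replicate 2, beside 7.92% of all genes, namely Efnb3, Plxnd1, Sema3a, Sema5a, Slit1 and Unc5d. Low genes vary more, and most of the called members were low. At a mean of 1 to 5 TPM 9 of 24 guidance genes, or 37.5%, differed by more than 2-fold in either direction, beside 35.9% of all genes at that level. At 5 to 50 TPM 3 of 21 did, or 14.3%, beside 9.8% of all genes. The shares within each class of level were thus close to the background. The median log2 ratio of (TPM + 1), replicate 1 over replicate 2, was -0.06 over the guidance genes and -0.05 over all genes, and the median of its size was 0.35 and 0.32.

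**Figure D3:**
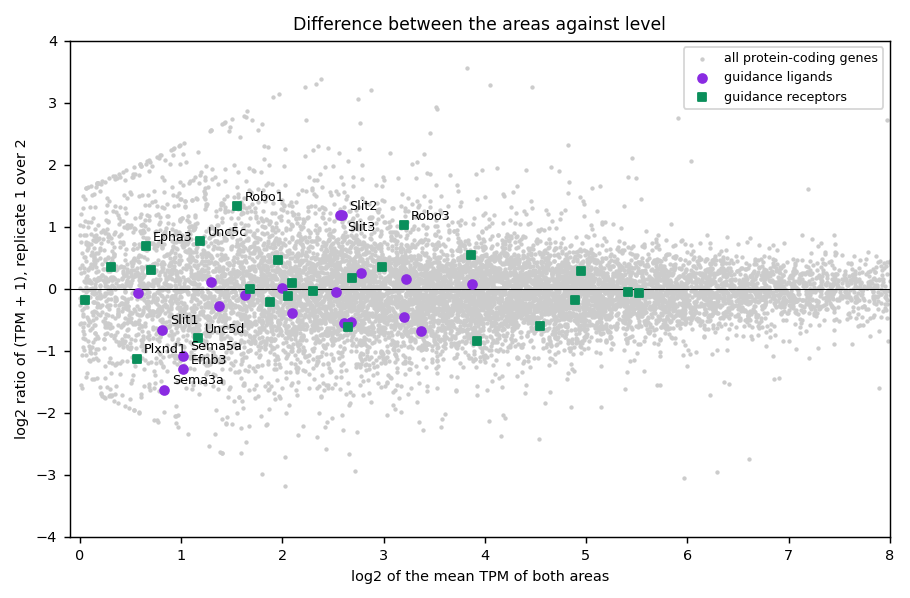
Difference between the areas against level for genes that averaged 1 TPM or more and had 50 or more counts in all: log2 ratio of (TPM + 1), replicate 1 over replicate 2, against the log2 of the mean TPM. Grey points are protein-coding genes (481 lie outside the axes), circles are guidance ligands and squares are guidance receptors, with names for those beyond 2-fold by TPM. The guidance genes sit inside the grey cloud, which narrows as the level rises.

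The transcript tables show which forms carried these levels. For 18 guidance genes with a mean of at least 5 TPM and more than 1 listed transcript, the transcript with the largest percent of the gene was the same in both areas in 16 cases. In 11 of the 16 it had a complete coding sequence, in 3 it was a retained-intron model, in 1 a coding model with an incomplete end and in 1 a processed transcript. The assignment of reads among overlapping transcripts is an estimate, and short models reach high TPM with few counts.

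Ephb6 is the clearest case of the last kind. Its full-length transcript Ephb6-201 was at 15.79 TPM (1245 counts) and 16.42 TPM (1339 counts), and the 459-base model Ephb6-203, whose coding start is missing, was at 28.97 TPM (224 counts) and 30.87 TPM (247 counts). The short model shares 448 of its 459 bases with the full-length one, near its 3′ end. Complete coding transcripts thus made up 35.3% and 34.7% of the TPM of Ephb6, and on that measure the gene ranked 5 and Epha4 ranked 1. In Sema3c retained-intron models took 93.1% and 94.4% of the TPM, and in Robo3 83.0% and 71.3%. The 459-base processed transcript Slit3-204 took 64.9% and 77.7% of Slit3. Ephb6, Plxnb2, Robo3, Sema3c, Sema4a and Slit3 were the 6 of the 38 genes detected in both areas with under 50% of their TPM in complete coding transcripts in each area.

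**Figure D4:**
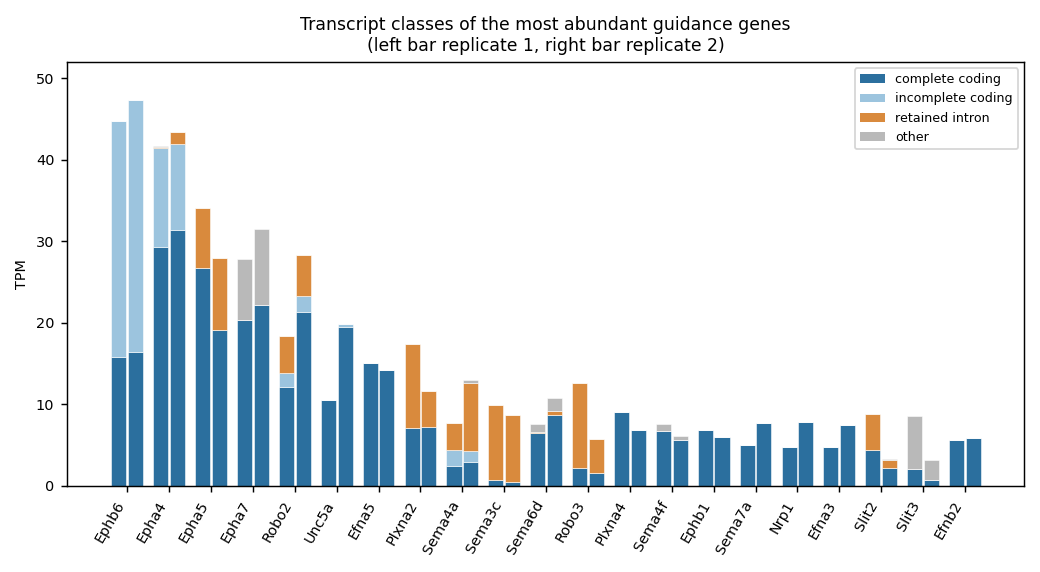
TPM of the guidance genes with a mean of at least 5 TPM, split by transcript class, with replicate 1 on the left and replicate 2 on the right of each pair. Colours mark transcripts with a complete coding sequence, coding models with an incomplete end, retained-intron models and others. Sema3c and Robo3 are mostly retained-intron models, and Ephb6 is mostly an incomplete coding model.

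The Epha7 transcript with the highest TPM encodes a truncated receptor. Epha7-202, with 610 codons, was at 14.48 TPM (866 counts) in replicate 1 and 14.79 TPM (915 counts) in replicate 2, and the longer Epha7-203, with 994 codons, was at 5.80 TPM (814 counts) and 7.43 TPM (1077 counts). Both transcripts had similar counts, and the shorter one was higher per length in both areas. The coding sequences part after a shared stretch. Epha7-202 goes on with 32 coding bases of its own and a stop codon. Whether these bases extend the shared exon or form a separate exon was not looked up. Epha7-203 goes on from the same point with 1184 further coding bases in 8 exon pieces. EphA7 forms without the tyrosine kinase are known, and the kinase lies downstream of this point. The sequences at the parting are shown because they separate the forms, with the shared 30 bases in lower case and the 35 bases that differ in capitals, ending at the stop codon in Epha7-202. The capitals lie at chr4:28946219-28946253 and chr4:28947540-28947574 on the plus strand of GRCm38, from GENCODE M21 transcripts.
Epha7-202: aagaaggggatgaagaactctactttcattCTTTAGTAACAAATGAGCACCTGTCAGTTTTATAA
Epha7-203: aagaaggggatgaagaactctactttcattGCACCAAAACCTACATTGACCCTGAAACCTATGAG

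Unc5a was carried by the form that skips a coding exon. Unc5a-202, with 842 codons, was at 9.11 TPM (731 counts) in replicate 1 and 19.52 TPM (1619 counts) in replicate 2, or 86.2% and 98.5% of the gene. Unc5a-201, with 898 codons, was at 1.46 TPM (122 counts) and 0 TPM. The transcripts are otherwise identical, so only reads touching the 168-base exon or its junctions tell them apart. By the deposited posterior mean, an alternative estimate that is never exactly 0, Unc5a-201 stood at 1.61 and 0.20 TPM. The exon that separates them is printed whole, in capitals, and lies at chr13:54997193-54997360 on the plus strand of GRCm38 (GENCODE M21), inside the coding sequence, where it adds 56 codons.
Unc5a exon: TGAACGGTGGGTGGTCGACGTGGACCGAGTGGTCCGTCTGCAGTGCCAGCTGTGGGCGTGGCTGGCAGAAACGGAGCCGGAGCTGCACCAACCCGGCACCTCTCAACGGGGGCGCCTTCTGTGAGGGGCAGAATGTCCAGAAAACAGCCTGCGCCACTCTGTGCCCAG

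Epha5 and Sema6d were also led by forms with a shorter coding sequence. Epha5-204, with 819 codons, took 61.0% and 59.2% of Epha5, at 20.82 and 16.53 TPM, and lacks 225 coding bases of Epha5-202, which was at 2.49 and 2.53 TPM. Sema6d-208 was at 4.27 and 5.15 TPM and lacks 225 coding bases of Sema6d-206, which was at 1.86 and 3.13 TPM. Their order was the same in each area.

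Plxna2 and Robo2 were the genes whose leading transcript differed. In Plxna2 the retained-intron model Plxna2-202 went from 10.01 TPM in replicate 1 to 4.41 TPM in replicate 2, while the full-length Plxna2-201 was at 7.15 and 7.21 TPM. In Robo2 the transcript Robo2-203 was at 3.41 TPM (589 counts) and 12.16 TPM (2171 counts), while Robo2-202 was at 8.73 and 9.12 TPM. Robo2-203 thus differed 3.57-fold and Robo2-202 1.04-fold by TPM. The listed length of Robo2-203 differs between the annotation used for counting and the later one used here for names.

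Whether the counting used strand was not given, so genes that overlap a guidance gene were looked up. Of the guidance genes that averaged 1 TPM or more, 6 overlapped a gene that reached 1 TPM in either area, and in 4 (Plxna4, Epha6, Slit2 and Unc5c) it was antisense. The antisense gene Gm15688 in Unc5c had 73 counts in replicate 1 and 1 count in replicate 2. Plxna4os2 had 81 and 29 counts beside 2474 and 1947 in Plxna4. Overlap was read over whole gene spans, introns included. Without strand, reads in exons that such a pair shares cannot be told apart, and whether exons are shared was not looked up.

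Genes of the cytoplasmic pathway downstream of the receptors reached higher summed levels than the receptors. The 29 cytoplasmic guidance effectors listed summed to 1537 TPM in replicate 1 and 1760 TPM in replicate 2, above the 272 and 277 TPM of the 35 receptors. Of the 29 cytoplasmic guidance effectors 25 reached 1 TPM in both areas. Chn1, which encodes a chimaerin that acts below EphA4, was at 844 and 940 TPM. Pak1, a kinase that regulates actin, was at 228 and 309 TPM. Ngef, the exchange factor ephexin that binds EphA4, was at 87.9 and 158 TPM. Among the effectors Mical1, an actin-oxidising enzyme below plexins, was the gene that passed 2-fold, at 2.57 and 0.65 TPM.

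The collapsin response mediators, which carry the Sema3a signal to microtubules, were detected in both areas in 4 of 5 cases. Dpysl2 was at 473 and 509 TPM, Crmp1 at 41.6 TPM in both, and Dpysl3 at 3.73 and 13.63 TPM. Dpysl3 was the 1 gene of the list beyond 2-fold. Of 19 other guidance cues and receptors 17 were detected in both areas. Rtn4, which encodes Nogo, was at 295 and 342 TPM, Omg, an inhibitor of axon growth in myelin, at 123 and 138 TPM, and Lrrc4c, the receptor of netrin-G1, at 59.1 and 72.8 TPM. In this list 3 genes were more than 2-fold higher in replicate 2 and none in replicate 1: the Nogo receptor gene Rtn4r (18.1 and 37.0 TPM), Cntn2 (3.77 and 8.11 TPM) and the myelin gene Mag (3.56 and 13.6 TPM).

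Marker lists were read beside these values. Layer 5 neuron markers were at 1 TPM or more in both areas in 8 of 8 cases, and 3 of them differed by more than 2-fold. Crym was at 7.88 TPM in replicate 1 and 1.89 TPM in replicate 2, Parm1 at 30.74 and 9.03 TPM, and Rbp4 at 42.11 and 88.18 TPM, so that Crym and Parm1 were higher in replicate 1 and Rbp4 in replicate 2. The pan-neuronal markers summed to 8752 and 10251 TPM with none beyond 2-fold. Oligodendrocyte markers summed to 562 TPM in replicate 1 and 986 TPM in replicate 2, with 8 of 8 higher in replicate 2 and 6 beyond 2-fold. Microglial markers summed to 263 and 88.0 TPM, with 7 of 8 beyond 2-fold in favour of replicate 1. Endothelial markers summed to 120 and 59.9 TPM, with 4 of the 6 that passed the filter beyond 2-fold in favour of replicate 1 and none in favour of replicate 2. Mural markers summed to 23.8 and 7.08 TPM, and Acta2 was at 0 in both. Astrocyte markers summed to 732 and 827 TPM with none beyond 2-fold. GABAergic markers summed to 1610 and 3174 TPM, and most of the replicate 2 sum was Sst, at 194 and 2859 TPM. Npy was also higher in replicate 2 beyond 2-fold, at 27.2 and 61.5 TPM. Pvalb (918 and 145 TPM) and Gad1 (438 and 65.2 TPM) were higher in replicate 1 beyond 2-fold. The sum therefore gives no direction for the list as a whole.

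Of 4 guidance genes known from oligodendrocytes, Plxnb3 had 8 and 95 counts and Sema5a 216 and 742, both higher in replicate 2. In both areas all of the TPM of Plxnb3 lay in retained-intron models. Sema4d was at 2.96 and 3.23 TPM with 279 and 292 counts, and Sema6a at 3.99 and 3.98 TPM with 324 and 349 counts. The count ratio of Sema4d, replicate 1 over replicate 2, was 1.04 (0.877 to 1.23), the opposite direction to its TPM, and the interval includes 1. Of 8 guidance genes known from endothelium 3 (Robo4, Unc5b and Sema3g) had the higher value in replicate 1 and 5 (Efnb2, Nrp1, Efna1, Ephb4 and Plxnd1) in replicate 2, while of the 8 endothelial markers 5 had the higher value in replicate 1 and 3 (Esam, Pecam1 and Cdh5) in replicate 2. The part of these cell classes in the differences of single guidance genes was not tested.

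**Figure D5:**
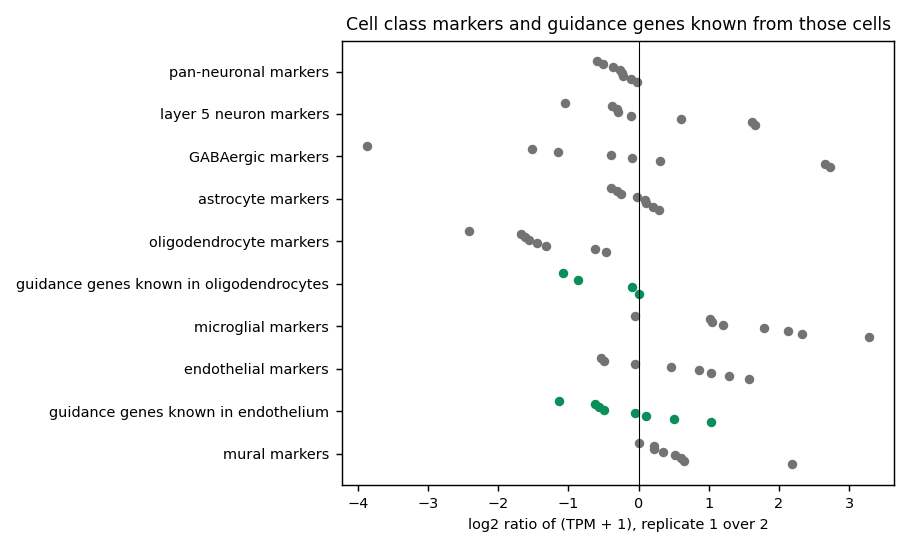
Log2 ratio of (TPM + 1), replicate 1 over replicate 2, for each gene of the marker lists (grey) and for guidance genes known from oligodendrocytes and endothelium (green), 1 point a gene. Oligodendrocyte markers lie left of 0 and most microglial markers right of it, while the endothelial markers and the guidance genes known from endothelium lie on both sides.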

How the data were processed

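RNA was measured in 2 libraries of 1 group. The deposited tables gave an expected count and TPM per gene and per transcript, a posterior mean TPM, and each transcript's percent of its gene. The authors scaled TPM over all features of a library. Per the deposited text files the assembly was mm10 and the annotation GENCODE M4. The columns are those of RSEM, and the program, aligner and strand setting are not given in the sources used here. Symbols, classes and coordinates came from a later release, GENCODE M21, of the same assembly (GRCm38). Of 332 transcripts of the members 330 were in M21, 285 with the same length.

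Members and lists were chosen with earlier results of these data known. Every member could be named, and in full the up to 4 highest of each family, Epha4, Efnb3, Plxna1, Robo2 and those beyond 2-fold. Other lists gave up to 3 genes of highest level and those beyond 2-fold, and 1 list is not reported here. Acta2, Esam, Pecam1, Cdh5, the transcripts and the overlapping genes were named after their values were seen. A fold was a ratio of TPM, and log2 ratios used a pseudocount of 1 TPM. Count ratios were taken per total count with exact Clopper-Pearson 95% intervals. The libraries held 26059117 and 28276843 expected counts. The tables record no molecular identifiers, and the intervals and floors therefore reflect only the error of counting. TMM factors were computed on expected counts rounded to whole numbers (edgeR 4.0.16, R 4.3.3), and other steps used Python 3.11.15, pandas 2.3.3 and scipy 1.17.1. The fold calls were tested on simulated counts with changes well beyond 2-fold. The simulation held TPM per count fixed for each gene, so it could not cover genes whose TPM and counts disagree. Alternatives were other TPM minimums, the posterior mean, nuclear genes alone, CPM with TMM factors, pseudocounts of 0.1 and 1, centring and leaving out each library. Complete coding transcripts alone, and the background by class of level, were added after seeing the data.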

Additional observations from a re-analysis of the deposited data

How the results depend on the processing

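Counts of genes beyond 2-fold depended on the minimum level. With a mean of at least 5 TPM 3 of 21 guidance genes were higher in replicate 1 and 0 in replicate 2, beside 3.26% and 4.35% of all genes. With every gene above 0 in both libraries 10 and 15 of 62 were, beside 10.4% and 9.98% of all genes. Other alternatives gave 4 to 6 and 4 to 9 of 42 to 49 guidance genes, beside 4.85% to 7.93% and 5.17% to 8.68% of all genes. CPM with TMM factors gave 5 and 5, without Robo3, Unc5c and Slit1 and with Plxnb2, and the log2 ratio of Slit1 turned to 0.0033. The posterior mean left out Slit2, Unc5c and Slit1 and added Sema3f, Sema5b and Sema6c, all higher in replicate 2. Nuclear genes alone left out none and added Efna1, Sema5b and Sema6c in the same direction. A pseudocount of 1 TPM left out Epha3, Unc5c, Slit1 and Unc5d. Complete coding transcripts alone left out Robo3, Unc5c and Slit1 and added Epha10, higher in replicate 1, and Epha6, higher in replicate 2. Detection in both areas ranged from 32 genes at 2 TPM to 47 at 0.5 TPM, and was 41 without replicate 2 and 48 without replicate 1. At a mean of at least 1 TPM the leading transcript was the same in 30 of 35 genes. The median log2 ratio stayed between -0.07 and -0.01 in all alternatives. No paired analysis was possible because there is 1 group and no result comes from a test. Counts per gene limit what the depth can show, and most of the called genes were low in TPM. Each side of a fold was 1 library.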
